A study of Mus musculus with 6 samples.

Results

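The Bcl2 family comprises proteins that hold or release the mitochondrial block on cell death, and 10 of its genes are described here among the 23669 gene rows of the deposited table: the survival genes Bcl2, Bcl2l1 and Mcl1, the pore-forming effectors Bax and Bak1, and the BH3-only genes Bcl2l11, Pmaip1, Bbc3, Bid and Bad. The rows were taken by gene symbol, and all 10 passed the filter on low values that left 13765 genes for testing. RNA came from whole mouse kidneys at postnatal day 3. The 3 samples called NICD2 were R26NICD2/+ Kspcre, in which an allele at the Rosa26 locus carries the intracellular domain of Notch2, the fragment by which an activated Notch receptor switches on target genes, and a Cre recombinase is driven by the promoter of Ksp-cadherin, a gene of kidney tubule epithelium, while the RNA came from all cells of the organ. The other 3 samples were wild type, and the title of the series places the comparison in the study of cyst growth. The labels state no pooling and do not say that samples of a group were separate animals, so p-values here reflect differences among libraries that could in part be technical.

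In a healthy cell the survival proteins bind and restrain Bax and Bak, which otherwise open the outer mitochondrial membrane and release cytochrome c to the caspases. BH3-only proteins relay stress: Bim (from Bcl2l11) and Puma (Bbc3) bind all survival proteins, Noxa (Pmaip1) binds mainly Mcl1, Bad binds Bcl2 and Bcl-xL (Bcl2l1), and Bid links death receptors to mitochondria. The family has a known place in the kidney, since mice without Bcl2 develop polycystic kidneys and loss of Bim prevents this. Messenger RNA level is only part of their control: Mcl1 protein turns over fast, Bad is held by 14-3-3 proteins when phosphorylated, and Bcl2l1 and Bcl2l11 are spliced into forms that a value per gene does not separate.

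The row for human Notch2, taken as the transgene, held 75.4, 79.6 and 60.2 FPKM in NICD2 libraries and 0, 0.03 and 0.03 FPKM in wild type libraries, while mouse Notch2 was at 17.3 ± 0.835 and 17.0 ± 1.48 FPKM (SD, n = 3 each). FPKM are fragment counts scaled to transcript length and library size, so genes can be compared per length. The estimated depth of a library was 15750000 to 16600000 fragments. In NICD2 replicate 3 the 4 Y-linked genes looked up were listed at 0, unlike in the other libraries. Transcripts of the adrenal cortex, a neighbouring gland, were low in 1 library of each genotype: the 6 markers summed to 2.41 FPKM in NICD2 replicate 1 and 5.4 FPKM in wild type replicate 3, and reached 150 FPKM in NICD2 and 149 FPKM in wild type. The kidney markers Umod, Slc34a1, Aqp2 and Nphs1 were above 9 FPKM in every library.

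Of the 10 members, limma called 3 higher and 1 lower in NICD2 at a Benjamini-Hochberg adjusted p under 0.05. Across all 13765 genes tested, 4.93% were called higher and 3.86% lower. The 1 member called lower is too few to set against the background, and that call was lost in 5 of the 6 fits that left out 1 library. The survival genes Bcl2 and Mcl1 rose and Bcl2l11, the gene of the death activator Bim, fell. The Noxa gene Pmaip1, a death-promoting member, also rose, so the calls did not all lie on the survival side. Bcl2l1, Bax, Bak1, Bbc3, Bid and Bad did not pass the test. Without NICD2 replicate 1 and wild type replicate 3, the libraries low in adrenal transcripts, 2 members were called higher (Bcl2 and Mcl1) and 0 lower, with 1 lower at an unadjusted p under 0.05 in limma. The median log2 fold change of (FPKM + 1), NICD2 minus wild type, was 0.11 over the 10 members and -0.01 over all genes tested.

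**Figure D1:**
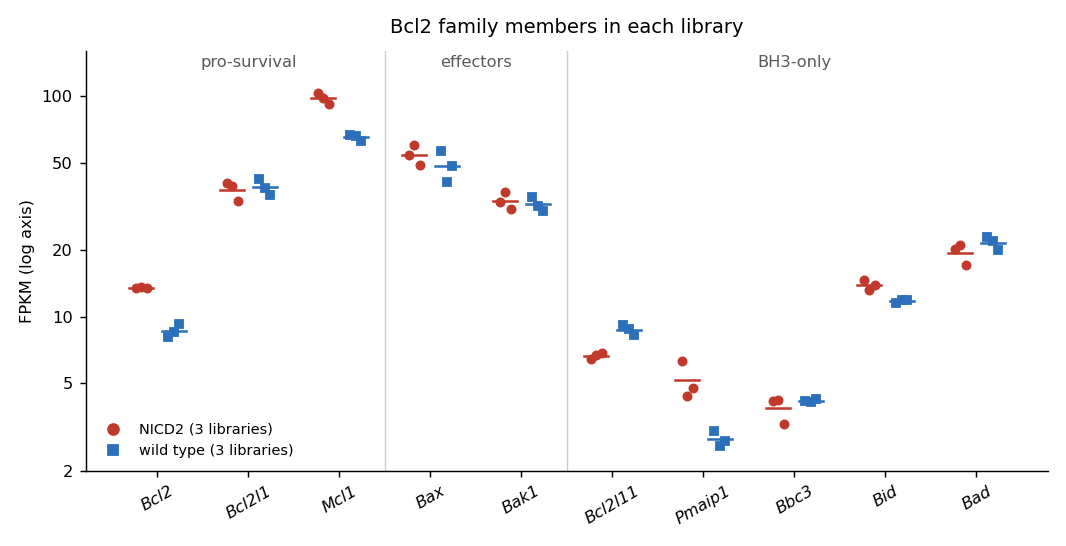
FPKM of the 10 members in each library on a log axis, by role, with NICD2 (circles) left of wild type (squares) and a bar at each group mean. Bcl2 and Mcl1 sit higher and Bcl2l11 lower in all 3 NICD2 libraries than in any wild type library, Pmaip1 and Bid also sit higher, and Bcl2l1, Bax, Bak1, Bbc3 and Bad overlap between the groups.

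The sequences upstream of the start sites are shown for the 2 survival genes that rose and for the 2 BH3-only genes that fell, Bcl2l11 and Bmf, to set them side by side; Pmaip1 and Bcl2l14, which also rose, are not among them. Each is the 250 bases before the RefSeq start on GRCm38.p6, 5′ to 3′ along the gene, in lower case with capitals where either of 2 motifs occurs: the core site of RBPJ, the DNA-binding partner of the Notch intracellular domain (TGGGAA or TTCCCA on the other strand), and a site of FOXO factors, known activators of the Bim gene (TGTTTAC or GTAAACA on the other strand). The windows lie at chr1:106714291-106714540 on the minus strand for Bcl2, chr3:95658471-95658720 on the plus strand for Mcl1, chr2:128125788-128126037 on the plus strand for Bcl2l11 and chr2:118544588-118544837 on the minus strand for Bmf. For Bcl2l11 and Bmf, which have 2 and 3 windows, the window with the lowest coordinate is printed. For Bcl2l11, on the plus strand, that is the window farthest upstream. For Bmf, on the minus strand, it is the window farthest downstream, inside the gene. The Mcl1 window also lies inside its gene as given here, which begins at 95658410, ahead of the RefSeq start used for the window.
Bcl2: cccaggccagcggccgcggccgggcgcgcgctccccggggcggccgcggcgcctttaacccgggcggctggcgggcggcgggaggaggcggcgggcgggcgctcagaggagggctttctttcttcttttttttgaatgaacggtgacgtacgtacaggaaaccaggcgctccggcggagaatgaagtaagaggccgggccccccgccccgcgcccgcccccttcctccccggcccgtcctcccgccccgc
Mcl1: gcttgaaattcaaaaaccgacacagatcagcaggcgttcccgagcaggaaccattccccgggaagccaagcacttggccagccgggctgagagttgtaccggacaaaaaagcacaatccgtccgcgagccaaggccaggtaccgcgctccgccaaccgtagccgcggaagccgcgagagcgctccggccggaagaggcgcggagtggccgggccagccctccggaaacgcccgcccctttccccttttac
Bcl2l11: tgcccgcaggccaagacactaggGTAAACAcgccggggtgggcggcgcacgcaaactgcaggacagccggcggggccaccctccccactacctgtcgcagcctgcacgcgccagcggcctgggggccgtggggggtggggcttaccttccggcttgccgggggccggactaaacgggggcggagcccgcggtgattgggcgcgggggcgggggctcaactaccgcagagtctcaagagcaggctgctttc
Bmf: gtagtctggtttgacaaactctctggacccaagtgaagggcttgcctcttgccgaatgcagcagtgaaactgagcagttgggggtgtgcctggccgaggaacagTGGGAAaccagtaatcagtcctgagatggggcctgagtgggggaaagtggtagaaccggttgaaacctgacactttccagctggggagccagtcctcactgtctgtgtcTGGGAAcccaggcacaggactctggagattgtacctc
The Bcl2 and Mcl1 windows hold neither motif, the Bcl2l11 window holds 1 FOXO match and the Bmf window 2 RBPJ matches, and the other windows of Bcl2l11 and Bmf hold neither. Over all 32851 such windows, 21.6% hold the RBPJ letters and 3.17% the FOXO letters, and among 15 windows of 9 members 3 and 2 do. The Bcl2 window has a G+C content of 74.8%, Mcl1 64.4%, Bcl2l11 72.0% and Bmf 55.6%, against a median of 52.4% over all windows. Absence of the letters from a window this short says nothing of sites elsewhere.

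Bcl2, the founding survival gene (gene 12043, chromosome 1, 106538176 to 106714290 on GRCm38, minus strand, 2 transcripts), was at 13.5, 13.6 and 13.5 FPKM in NICD2 libraries and at 8.08, 8.54 and 9.30 FPKM in wild type libraries. The groups did not overlap, and the NICD2 values lay closer together than the wild type values. The means were 13.6 ± 0.0819 and 8.64 ± 0.616 FPKM (SD, n = 3 each), 56.8% higher in NICD2, with a log2 fold change of 0.60 ± 0.07 (SE; limma adjusted p = 0.0014). It was called in each of the 12 alternative fits.

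Mcl1, a short-lived survival protein that restrains Bak and Bim (gene 17210, chromosome 3, 95658410 to 95663179, plus strand), was at 103, 98.0 and 92.1 FPKM in NICD2 libraries and at 66.6, 66.3 and 62.4 FPKM in wild type libraries. Every NICD2 library was above every wild type library. The means of 97.9 ± 5.68 and 65.1 ± 2.33 FPKM differed by 50.4%, with a log2 fold change of 0.58 ± 0.07 (limma adjusted p = 0.0011), and the call held in each of the 12 alternatives. In FPKM the rise of Mcl1 was the larger of the pair, since Mcl1 was the most abundant member in both genotypes.

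Bcl2l1, which encodes Bcl-xL, was at 40.5, 39.2 and 33.4 FPKM in NICD2 libraries and at 42.2, 38.2 and 35.8 FPKM in wild type libraries. The groups overlapped almost fully. The log2 fold change was -0.04 with a 95% interval of -0.25 to 0.17 (limma adjusted p = 0.831), which does not reach the rise of Bcl2 or Mcl1. The ratio of Mcl1 to Bcl2l1 FPKM was 2.60 ± 0.134 in NICD2 and 1.69 ± 0.0939 in wild type (SD, n = 3 each), given as a description with no test.

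The effectors, which carry out membrane permeabilization, were abundant and did not pass the test. Bax was at 54.0, 60.2 and 48.9 FPKM in NICD2 libraries and at 56.5, 40.8 and 48.0 FPKM in wild type libraries. Its wild type values spanned most of the range of both groups, and its log2 fold change of 0.17 had a 95% interval of -0.10 to 0.44 (limma adjusted p = 0.428). Bak1 was at 33.1, 36.7 and 30.9 FPKM in NICD2 libraries and at 35.1, 31.8 and 30.2 FPKM in wild type libraries. The interval of its log2 fold change, -0.14 to 0.24, leaves out changes as large as those of Bcl2 and Mcl1 (adjusted p = 0.756).

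Among the BH3-only genes, Bcl2l11 fell (gene 12125, chromosome 2, 128126038 to 128162547, plus strand, 9 transcripts). It was at 6.46, 6.69 and 6.85 FPKM in NICD2 libraries and at 9.14, 8.78 and 8.23 FPKM in wild type libraries, with no overlap. The means were 6.67 ± 0.196 and 8.72 ± 0.458 FPKM, a difference of -23.5%, with a log2 fold change of -0.34 ± 0.07 (limma adjusted p = 0.0212). This is the weakest of the 4 calls: it was lost without NICD2 replicate 1 (adjusted p = 0.0808), replicate 2 (0.0644) or replicate 3 (0.0501) and without wild type replicate 1 (0.0544) or replicate 2 (0.0858), each time with a log2 fold change of the same sign, between -0.36 and -0.31. Without NICD2 replicate 1 and wild type replicate 3 together the adjusted p was 0.0974.

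Pmaip1, the gene of the Mcl1-binding protein Noxa (gene 58801, chromosome 18, 66458604 to 66465558, plus strand, 1 transcript), rose. It was at 6.29, 4.36 and 4.77 FPKM in NICD2 libraries and at 3.02, 2.59 and 2.73 FPKM in wild type libraries. The groups did not overlap, and NICD2 replicate 1 stood above the other NICD2 libraries. The means were 5.14 ± 1.02 and 2.78 ± 0.219 FPKM, a ratio of 1.85 and the largest of the 10 members, with a log2 fold change of 0.69 ± 0.12 (limma adjusted p = 0.011). The call was lost without wild type replicate 2 (adjusted p = 0.0528, log2 fold change 0.65). Leaving out NICD2 replicate 1 and wild type replicate 3 together also ended it (adjusted p = 0.0508, log2 fold change 0.55).

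Bid, which is cleaved by caspase-8, was at 14.7, 13.3 and 13.9 FPKM in NICD2 libraries and at 11.6, 12.0 and 11.9 FPKM in wild type libraries. The groups did not overlap, but the log2 fold change of 0.22 ± 0.07 did not pass (limma adjusted p = 0.0739). Bad, the sensitizer that binds Bcl2 and Bcl-xL, was at 20.3, 21.1 and 17.1 FPKM in NICD2 libraries and at 23.0, 22.01 and 20.1 FPKM in wild type libraries (log2 fold change -0.15, 95% interval -0.36 to 0.06, adjusted p = 0.348). Bbc3, the gene of the p53-induced killer Puma, was at 4.16, 4.19 and 3.27 FPKM in NICD2 libraries and at 4.13, 4.09 and 4.22 FPKM in wild type libraries (log2 fold change -0.08, 95% interval -0.31 to 0.14, adjusted p = 0.645). For Bad and Bbc3 the lowest NICD2 library was replicate 3. The same held for Bcl2, Bcl2l1, Mcl1, Bax and Bak1, but not for Bcl2l11, Pmaip1 or Bid.

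**Figure D2:**
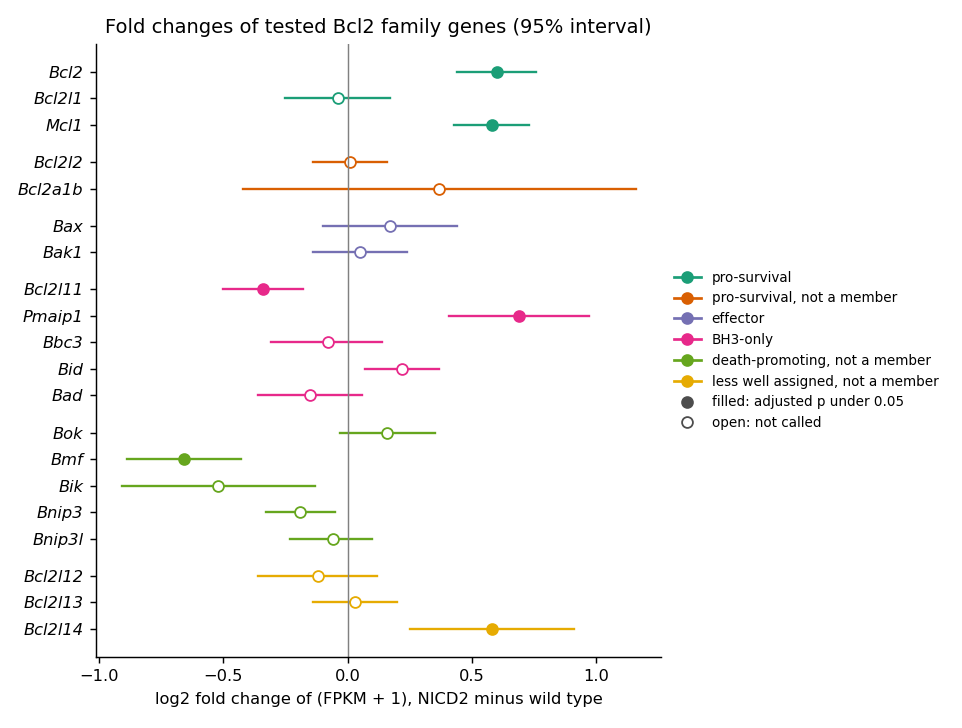
Log2 fold change of (FPKM + 1), NICD2 minus wild type, with 95% interval for the 20 tested genes of the family, coloured by role and filled where the adjusted p was under 0.05. Bcl2, Mcl1, Pmaip1 and Bcl2l14 lie to the right, Bcl2l11 and Bmf to the left, and Bcl2l1, Bcl2l2 and Bak1 near 0.

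The order of levels within the family was much alike in both genotypes. In NICD2 it ran from Mcl1 through Bax, Bcl2l1, Bak1, Bad, Bid, Bcl2, Bcl2l11 and Pmaip1 to Bbc3, and in wild type from Mcl1 through Bax, Bcl2l1, Bak1, Bad, Bid, Bcl2l11, Bcl2 and Bbc3 to Pmaip1. Neighbours whose ranges overlapped were Bcl2l1 with Bak1 and Bid with Bcl2 in NICD2, and Bax with Bcl2l1 and Bcl2l11 with Bcl2 in wild type. Bcl2 and Bcl2l11 thus overlapped in wild type, while in NICD2 Bcl2 stood above Bcl2l11 in every library. The FPKM ratio of Bcl2 to Bcl2l11 was 2.09, 2.04 and 1.97 in NICD2 libraries and 0.88, 0.97 and 1.13 in wild type libraries.

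Survival members were then set against death-promoting members, library by library, as a description with no test, since the members were chosen with results known. The summed FPKM of Bcl2, Bcl2l1 and Mcl1 was 157, 151 and 139 in NICD2 libraries and 117, 113 and 107 in wild type libraries, with no overlap. The summed FPKM of the 7 death-promoting members was 139, 146 and 126 in NICD2 libraries and 142, 122 and 125 in wild type libraries, which overlap. The ratio of the sums was 1.09 ± 0.0537 in NICD2 and 0.868 ± 0.0537 in wild type (SD, n = 3 each). Among these members the survival sum was thus the larger in every NICD2 library and the smaller in every wild type library. Which sum is larger depends on the genes summed. Death-promoting family genes outside the members summed to 132 to 137 FPKM in NICD2 and 144 to 147 FPKM in wild type. Survival genes outside the members summed to only 15.4 to 17.0 and 13.8 to 17.3 FPKM. Most of the difference in the survival sum is Mcl1. A balance on the log scale was the mean log2(FPKM + 1) of the survival members minus that of the death-promoting members. It weighs genes alike within a side, so each of the 3 survival members counts for more than each of the 7 death-promoting members. The balance was 1.4, 1.39 and 1.41 in NICD2 libraries and 1.05, 1.14 and 1.11 in wild type libraries, a difference of group means of 0.30.

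**Figure D3:**
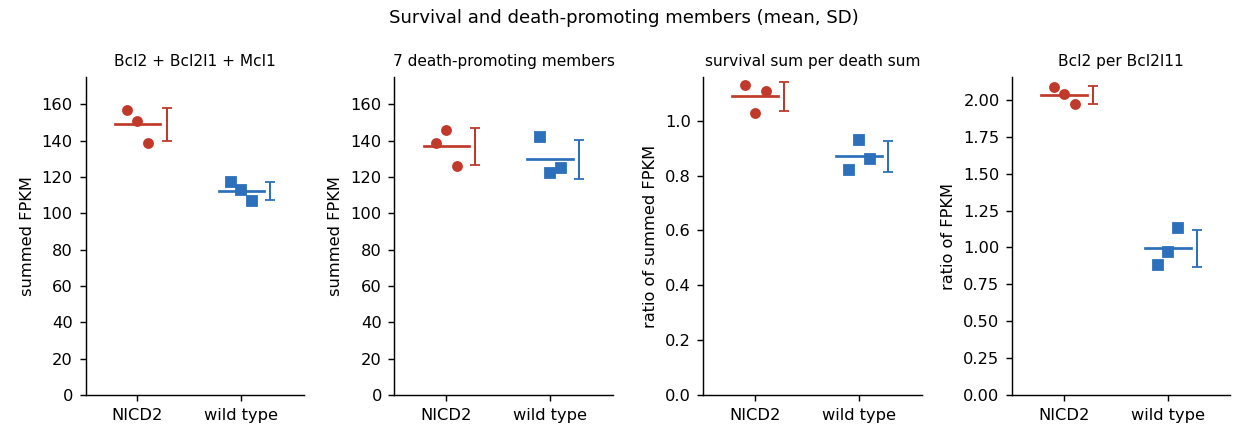
Summed FPKM of the 3 survival members, summed FPKM of the 7 death-promoting members, the ratio of these sums and the FPKM ratio of Bcl2 to Bcl2l11, by library, with the group mean (bar) and SD. The survival sums are 139 to 157 in NICD2 against 107 to 117 in wild type, while the death-promoting sums overlap at 126 to 146 and 122 to 142.

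Ratios of binding partners did not all move alike. Mcl1 per Bcl2l11 was 16.0, 14.7 and 13.5 in NICD2 libraries and 7.28, 7.55 and 7.58 in wild type libraries. Mcl1 per Pmaip1 overlapped, at 16.5, 22.5 and 19.3 in NICD2 libraries and 22.04, 25.6 and 22.9 in wild type libraries, since both genes were higher in NICD2. Bcl2l1 per Bax overlapped too, at 0.695 ± 0.0507 in NICD2 and 0.809 ± 0.109 in wild type.

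Outside the 10 members, 15 more genes of the family were looked up and 10 of them passed the filter. Limma called 1 lower and 1 higher, where 3.86% of all genes tested were called lower and 4.93% higher. Single calls are too few to set against those shares. Bmf, a BH3-only gene whose protein is released from the cytoskeleton (gene 171543, chromosome 2, 118528757 to 118549678), was at 8.22, 8.37 and 9.86 FPKM in NICD2 libraries and at 12.9, 14.6 and 16.1 FPKM in wild type libraries. No NICD2 library reached a wild type library, and the log2 fold change was -0.66 ± 0.10 (limma adjusted p = 0.0049), called in each of the 12 alternatives. Bcl2l14, whose part in cell death is less settled, was at 6.03, 3.84 and 4.30 FPKM in NICD2 libraries and at 3.20, 2.64 and 2.52 FPKM in wild type libraries (log2 fold change 0.58 ± 0.15, adjusted p = 0.0431). Its call was lost without NICD2 replicate 1 (adjusted p = 0.0899) or replicate 3 (0.0662), without wild type replicate 1 (0.0528), replicate 2 (0.14) or replicate 3 (0.116), with no filter on low values (0.0983), and without NICD2 replicate 1 and wild type replicate 3 together (0.175).

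The BH3-only gene Bik was at 2.29, 4.05 and 2.32 FPKM in NICD2 libraries and at 5.08, 4.53 and 3.84 FPKM in wild type libraries. NICD2 replicate 2 overlapped the wild type range, and Bik did not pass (log2 fold change -0.52 ± 0.17, limma adjusted p = 0.103) except without that library (adjusted p = 0.0155). Bnip3, a mitophagy receptor, was at 35.9 ± 1.70 and 41.2 ± 1.25 FPKM and its relative Bnip3l at 53.6 ± 4.53 and 56.0 ± 0.973 FPKM in NICD2 and wild type (adjusted p = 0.0919 and 0.63). The survival gene Bcl2l2, which encodes Bcl-w, was at 13.7 ± 0.345 and 13.6 ± 0.763 FPKM (log2 fold change 0.01, 95% interval -0.14 to 0.16), and the effector-like Bok at 33.4 ± 2.71 and 29.8 ± 2.5 FPKM (adjusted p = 0.285). Bcl2l12 was at 13.1 and 14.3 FPKM and Bcl2l13 at 8.92 and 8.70 FPKM in NICD2 and wild type, neither called. Hrk, Bcl2l10, Bcl2l15, Bcl2a1a and Bcl2a1d stayed under 1 FPKM in every library and were not tested. Bcl2a1b, a survival gene of blood cells, was at 1.77, 2.78 and 0.83 FPKM in NICD2 libraries and at 2.42, 0.84 and 0.41 FPKM in wild type libraries. The Bcl2a1 genes are near-identical copies, so these values are uncertain.

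Downstream of the mitochondria, 1 of 17 tested genes of the caspase cascade was called, against the 4.93% and 3.86% of all genes. Casp6, an executioner caspase, fell, at 16.8, 15.9 and 17.3 FPKM in NICD2 libraries and at 21.0, 21.7 and 22.4 FPKM in wild type libraries (log2 fold change -0.36, limma adjusted p = 0.00917). The caspase inhibitor Birc3 was at 5.45 ± 0.244 and 4.19 ± 0.798 FPKM in NICD2 and wild type (adjusted p = 0.117). Birc3 was called without wild type replicate 2 (adjusted p = 0.0438). The median log2 fold change of the list was 0.03. None of the 3 mitochondrial channel genes Vdac1, Vdac2 and Vdac3 was called by limma, and at an unadjusted p none was under 0.05 either.

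Of 13 tested death receptor genes, 1 was called, where 4.93% of all genes tested were called higher and 3.86% lower. Tnfrsf12a, the receptor of the cytokine TWEAK, rose, at 32.1, 35.6 and 25.2 FPKM in NICD2 libraries and at 22.7, 21.1 and 17.7 FPKM in wild type libraries (log2 fold change 0.56, limma adjusted p = 0.0341). Its call was lost without NICD2 replicate 1 (adjusted p = 0.0965) or replicate 2 (0.094), without wild type replicate 2 (0.0932) or replicate 3 (0.0986), and with no filter on low values (0.0805). Mlkl, the effector of necroptosis, was at 2.49 ± 0.535 FPKM in NICD2 and 1.47 ± 0.33 FPKM in wild type (adjusted p = 0.0711).

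Of 16 tested genes of the p53 pathway, which is known to induce Pmaip1, Bbc3 and Bax, 1 rose and 1 fell. These counts are near the shares of all genes tested, 4.93% called higher and 3.86% lower. Perp, a membrane protein that is also part of desmosomes, rose, at 48.0, 44.6 and 35.2 FPKM in NICD2 libraries and at 18.1, 18.2 and 18.4 FPKM in wild type libraries (log2 fold change 1.17, limma adjusted p = 0.000341). Gadd45a, a stress-response gene, fell, at 21.6 ± 1.74 and 28.8 ± 1.39 FPKM in NICD2 and wild type (adjusted p = 0.014). Its call was lost without NICD2 replicate 1 (adjusted p = 0.0548) or wild type replicate 3 (0.0525). Trp53 itself and its inhibitor Mdm2, named after their values were seen, were at 64.2 ± 4.41 and 19.8 ± 0.0173 FPKM in NICD2 and at 60.4 ± 4.24 and 19.6 ± 1.17 FPKM in wild type (adjusted p = 0.532 and 0.904).

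Of 8 tested transcription factors known to act on BH3-only genes, Myc rose and Foxo1 fell. Single calls are too few to set against the 4.93% of all genes tested called higher and 3.86% lower. Myc was at 16.0, 15.9 and 14.7 FPKM in NICD2 libraries and at 10.8, 10.2 and 11.9 FPKM in wild type libraries (log2 fold change 0.47, limma adjusted p = 0.00659). Foxo1, a FOXO factor of the kind that activates Bcl2l11, was at 10.3, 11.1 and 11.5 FPKM in NICD2 libraries and at 12.8, 14.9 and 14.6 FPKM in wild type libraries (log2 fold change -0.33, adjusted p = 0.0375). The Foxo1 call was lost without any NICD2 replicate (adjusted p = 0.128, 0.0901 and 0.0583 for replicates 1, 2 and 3), without wild type replicate 2 (0.143) or replicate 3 (0.103), and with no filter on low values (0.0688). Foxo3 was at 11.1 ± 0.612 and 13.2 ± 1.28 FPKM in NICD2 and wild type and was not called (adjusted p = 0.129).

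Among 13 tested kinases and 14-3-3 proteins that act on Bad, Sfn was the only gene called. For this list and the next, the shares of all genes tested were 4.93% called higher and 3.86% lower. Sfn, the 14-3-3 sigma protein of stratified epithelia, rose to 82.1, 77.0 and 59.2 FPKM in NICD2 libraries, against 16.7, 12.2 and 12.4 FPKM in wild type libraries (log2 fold change 2.32, limma adjusted p = 4.69e-05). Of 5 tested genes looked up as Mcl1 ubiquitin regulators, only Trib1 was called, and whether it acts on Mcl1 was not tested. Trib1 was at 8.46 ± 0.592 and 6.47 ± 0.431 FPKM in NICD2 and wild type (log2 fold change 0.34, limma adjusted p = 0.0359). It lost its call in each fit without a library other than NICD2 replicate 3, with adjusted p of 0.126 and 0.105 without NICD2 replicates 1 and 2 and of 0.0793, 0.0626 and 0.0971 without wild type replicates 1, 2 and 3, and with no filter on low values (0.0734). The ligase gene Fbxw7 was at 7.68 ± 0.117 and 8.25 ± 0.318 FPKM and Huwe1 at 30.3 ± 1.65 and 30.7 ± 2.71 FPKM, neither called. Without NICD2 replicate 1 and wild type replicate 3 together, Perp, Myc and Sfn were called, while Casp6, Tnfrsf12a, Gadd45a, Foxo1 and Trib1 had adjusted p of 0.0983, 0.193, 0.128, 0.236 and 0.227.

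**Figure D4:**
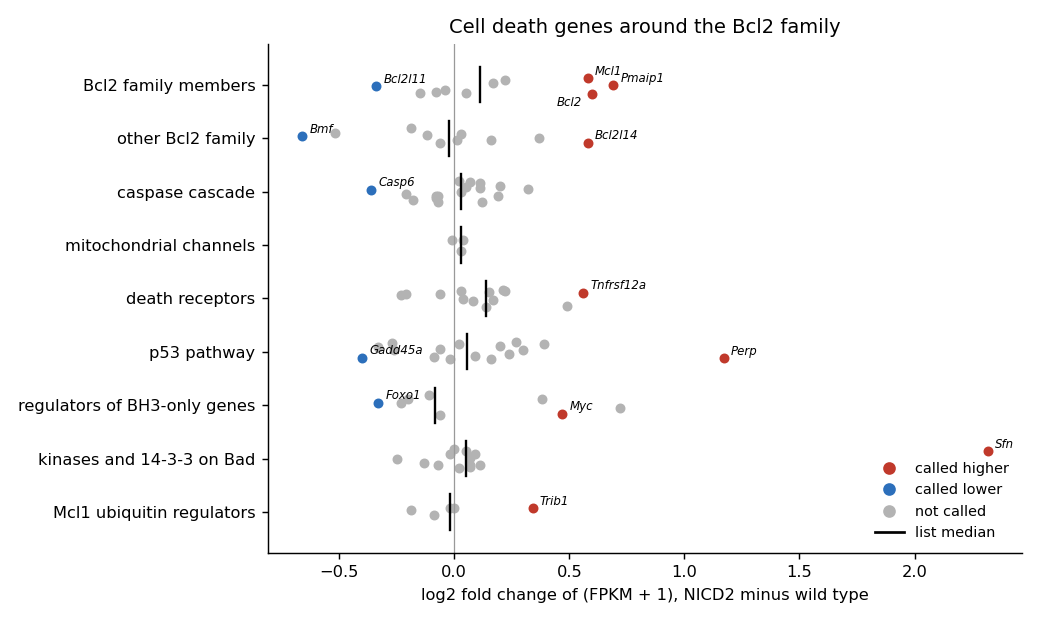
Log2 fold change of (FPKM + 1), NICD2 minus wild type, for each tested gene of 9 lists around the Bcl2 family, red where called higher, blue where called lower, grey where not called, with a black bar at the list median. Of the Bcl2 family members 4 of 10 points are coloured, and Sfn is farthest to the right at 2.32. Over all genes tested 4.93% were called higher and 3.86% lower. The lists differ in size and were chosen with earlier results known, so their counts are not ranked.

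Markers of several cell types differed between the same libraries, and in whole kidneys fewer cells of a type and less RNA per cell cannot be told apart. The counts of markers stand beside 4.93% of all genes tested called higher and 3.86% lower. Of 6 intercalated-cell markers 5 were lower, with summed levels of 40.3 to 47.6 FPKM in NICD2 and 131 to 137 FPKM in wild type. Of 6 principal-cell markers 3 were lower and 1 higher (176 to 212 and 320 to 333 FPKM), of 6 podocyte markers 5 were lower (252 to 268 and 342 to 381 FPKM), and of 6 proximal tubule markers 2 were lower (349 to 423 and 531 to 573 FPKM). Of 5 thick ascending limb markers 2 were higher and 1 lower (446 to 555 and 283 to 317 FPKM). The higher sum in NICD2 came from Umod, at 337 ± 33.6 and 114 ± 5.53 FPKM in NICD2 and wild type. The median log2 fold change of these markers was -0.27. Of nephron progenitor markers 2 of 5 were lower (55.4 to 64.2 and 78.6 to 87.7 FPKM), of stroma 1 of 6 (293 to 377 and 352 to 433 FPKM), of endothelium 2 of 6 (197 to 219 and 244 to 269 FPKM), and of urothelium 2 of 5 were lower and 1 higher (37.7 to 66.6 and 32.7 to 68.9 FPKM). No neutrophil marker of 3 was called (12 to 23.8 and 19.1 to 31.1 FPKM) and no erythroid marker of 4 (1577 to 2581 and 1768 to 4130 FPKM). No macrophage marker of 7 was called, at 97.1 to 134 FPKM in NICD2 and 75.3 to 107 FPKM in wild type. Of 3 tested T and B lymphocyte markers 1 was higher, with summed levels over the list of 10 to 10.3 FPKM in NICD2 and 5.92 to 13.3 FPKM in wild type. That marker, Cd8a, rose to 4.41 ± 0.671 FPKM in NICD2, against 0.877 ± 0.176 FPKM in wild type (limma adjusted p = 0.00019), while Cd3e and Ms4a1, named after their values were seen, stayed under 1 FPKM in every library. The part of these cell types in the Bcl2 family values was not tested.

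The depth behind the members' values was estimated at 107 to 5784 fragments per library, lowest for Pmaip1 and Bbc3 and highest for Mcl1. Exons of other genes lie over part of some members in GENCODE M21: Ggnbp1 over 25.5% of the exon bases of Bak1, Gpr137 over 20.5% of Bad, Bcl2l13 over 17.7% of Bid, Gm45808 over 12.2% of Bax and an antisense RNA over 6.1% of Bcl2. Gm45808 lies on the same strand as Bax, so strand would not separate their reads. The other overlaps named lie on the opposite strand. The sources used here do not give the treatment of strand, so those reads cannot be told apart either.

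In the authors' deposited table, where DEGseq was the method, a q under 0.05 stands beside 7 of the 10 members, and beside 48.9% of all 18725 genes with a q. In the authors' deposited table the log2 fold change, NICD2 over wild type, was 0.65 for Bcl2, 0.59 for Mcl1, 0.89 for Pmaip1 and -0.31 for Bcl2l11. Bid, Bax and Bad are the members with a q under 0.05 in the authors' deposited table that limma did not call (log2 fold change 0.23, 0.14 and -0.16). The authors' deposited table does not say how its fold changes were made, and they are not in every case the ratio of its mean FPKM. Both comparisons rest on the same 6 libraries.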

How the data were processed

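RNA was extracted with Trizol from frozen kidneys and made into TruSeq libraries, per the labels' protocols. The deposited table holds FPKM that the authors computed for each of 6 libraries, per the file headers. Further columns hold the authors' group means and a log2 fold change with a q-value and p-value from DEGseq, per the file headers, and the longest transcript length. Bowtie 0.12.2 and the build mm8 are named in the submitters' processing notes, but the table's chromosome accessions and positions are those of GRCm38. The sources used here do not name the program behind the FPKM.

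Of 23669 rows, 4010 held no FPKM. Values were transformed to log2(FPKM + 1), only genes reaching 1 FPKM in 3 or more libraries were tested, and NICD2 was compared with wild type, two-sided, with limma 3.58.1 (R 4.3.3), a mean-variance trend and Benjamini-Hochberg adjustment over all genes tested. This scale understates changes of low genes. The fit was tested on simulated data. Depth was estimated as the library size at which most low FPKM of short genes with 1 transcript are whole fragments (90.0% to 92.9% within 0.15 fragments, 30.0% by chance, transcript length shortened by 100 bases). Fragments per gene then use the longest transcript and are approximate. Python 3.11.15, pandas 2.3.3 and matplotlib 3.10.9 were used for tables and figures. The 27 columns of single-sample comparisons were left out.

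The members, gene lists, alternatives and tests were chosen with earlier results of these data known. Genes named were all members, the other Bcl2 family genes, up to 4 genes of smallest p of every other list, and Notch2; others are said to be named after their values were seen. Marker lists of other cell types are given as counts and summed levels. The alternatives changed the pseudocount (0.1), the low-value filter (none), the scaling (median-ratio or upper-quartile) or the design (replicate number as a block), or dropped a single library. A fit without NICD2 replicate 1 and wild type replicate 3, the libraries low in adrenal transcripts, was chosen after seeing the data. Promoter windows were taken from RefSeq (GRCm38.p6), where 9 of the 10 members matched by symbol; Pmaip1 is the other. Some genes of these lists are not reported here by name.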

Additional observations from a re-analysis of the deposited data

How the results depend on the processing

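Of 592 values of 50 single genes under the alternatives, 548 kept their direction or lack of a call, 39 lost a call, 5 gained one and 0 reversed. The count of all genes called was 1210, 1192 with a pseudocount of 0.1, 894 with no filter, 1238 and 1265 with median-ratio and upper-quartile scaling, and 603 to 955 when 1 library was left out (666 and 773 without NICD2 replicates 1 and 2, 603 and 753 without wild type replicates 2 and 3). Members called higher were 3, or 2 to 3 without a library, and members called lower 1, or 0 to 1. Where limma called 0 lower, 1 was at an unadjusted p under 0.05. Without NICD2 replicate 1 and wild type replicate 3, the libraries low in adrenal transcripts, 469 genes were called, with 2 members higher (Bcl2 and Mcl1, adjusted p = 0.0108 and 0.0272) and 0 lower, 1 at an unadjusted p under 0.05. Bcl2l11 and Pmaip1 then had adjusted p of 0.0974 and 0.0508. These fits have fewer samples. The survival minus death balance of 0.30 was 0.27 to 0.32 without a library and 0.33 as a log2 ratio of sums.

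Same-numbered libraries did not deviate together from their group means (correlations across 13765 genes of -0.033, 0.059 and -0.045), so no pairing by number was seen. The check cannot exclude a pairing, since these deviations also carry other differences among libraries, such as adrenal transcripts. With the replicate number as a block 1055 genes were called, 3 members higher and 1 lower. No library correlated best with its own number: the highest correlations were those of NICD2 replicate 1 with wild type replicate 3 (0.246), NICD2 replicate 3 with wild type replicate 2 (0.235) and NICD2 replicate 2 with wild type replicate 1 (0.207). No label pairs these libraries, and no fit with them as a block was made.

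With 3 libraries per group and 107 to 265 fragments behind Pmaip1, smaller changes of low members could not be detected.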
